A study of Sus scrofa with 12 samples.

Results

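Cytoplasmic and nuclear RNA decay was examined through the transcripts of its machinery in porcine (Sus scrofa) embryos: the scaffold and modules of CCR4-NOT, the PAN2-PAN3 and PARN deadenylases, the decapping enzymes, the LSm rings, the XRN exonucleases, the RNA exosome, the uridylation enzymes and the nonsense-mediated decay (NMD) factors. The list held 49 gene symbols taken by name, with no cutoff on their values, and was drawn up with earlier results of these data known. Of these, 46 had a row under that symbol among the 29329 genes of the count table, and all 46 were among the 17995 genes that passed the filter on low counts. TUT7 and SMG8 had no row under those symbols and were not analysed here. LSM5 was found only through its Ensembl identifier (ENSSSCG00000026064) and was kept apart, with its values given once beside the other LSm genes.

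The embryos came from in vitro fertilisation and fell into 4 groups of 3 libraries. Con-2c and con-4c were control embryos, and si-2c and si-4c were embryos that received si-CCNB2, an siRNA that targets the mitotic cyclin CCNB2, by microinjection after fertilisation. No breed was given in the labels for any group, each library was a pool of embryos according to the methods, and the labels call the controls a blank control where the methods also speak of a negative control, so an effect of the injection itself cannot be told apart from that of si-CCNB2. The labels do not say that the libraries of a group came from separate rounds of fertilisation, so p-values measure the spread between these libraries only, which may be technical.

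The stage is given as 2-cell in the title and 4-cell in the tissue label, or the reverse, for all 12 libraries. Group names follow the titles. Reading the tissue label for all 12 libraries would turn the sign of every difference between stages without changing which libraries are compared. Had the stage been exchanged in the control or the si libraries alone, each si over control comparison would also compare different stages. The interaction would then hold the differences between stages too. Such an exchange was not tested. SMART-seq copies polyadenylated RNA from an oligo(dT) primer, so a rise in the amount of a transcript and a gain of its poly(A) tail cannot be told apart. The values below are shares of each library, in which fewer cells and less RNA per cell cannot be told apart either.

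Library totals lay between 27785233 and 39510908 counts, and the 46 decay genes took 0.337% to 0.509% of them. CCNB2 was at 429 to 510.4 CPM (counts scaled to library size with TMM factors) in the 6 control libraries and at 17.8 to 46.8 CPM in the 6 si libraries. Of 10 oocyte markers, 9 had a row (DPPA3 had none under that symbol), and their summed level was 7438 to 7912 CPM in con-2c, 4447 to 4750 CPM in con-4c, 3955 to 4446 CPM in si-2c and 6831 to 7144 CPM in si-4c. These oocyte sums moved opposite to the decay genes that rose in con-4c and si-2c, and their part in the results was not tested. Not every marker followed the sums. BMP15 had group means of 887 CPM in con-2c, 985 CPM in con-4c and 1228 CPM in si-2c. ZP2 was at 173 CPM in con-2c, 143 CPM in con-4c and 178 CPM in si-2c. The means of the other markers were lower in con-4c and in si-2c than in con-2c. The 6 of 10 cumulus cell markers with a row summed to at most 3.80 CPM in any library (1.18 to 2.03 in con-2c, 2.14 to 2.32 in con-4c, 1.78 to 3.80 in si-2c and 0.607 to 1.43 in si-4c), and HAS2 was at 0 in all groups but con-4c. Of 8 sperm markers only AKAP4 and SPATA18 had a row, with sums of 0 in con-2c and si-4c, 0 to 0.658 CPM in con-4c and 0.390 to 1.35 CPM in si-2c.

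An mRNA is usually dismantled from its ends. Deadenylases first shorten the poly(A) tail, PAN2-PAN3 and then CCR4-NOT, and the LSM1-7 ring and its partners bring DCP2 to the cap, after which XRN1 degrades the body of the message from the 5′ end. The RNA exosome works from the 3′ end: a barrel of structural subunits, with a ring of EXOSC4 to EXOSC9 and a cap of EXOSC1 to EXOSC3, leads RNA to the nucleases DIS3 or DIS3L and EXOSC10. TUT4 and TUT7 add uridines to short tails, DIS3L2 degrades uridylated RNA, and the UPF and SMG proteins recognise and cut messages with a premature stop codon. In early embryos these routes clear the messages that the oocyte stored, before and while the embryo's own genome is switched on.

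A gene was called higher or lower when the edgeR quasi-likelihood test gave it an adjusted p below 0.05 and the fitted log2 fold change was at least 1 in size. In con-4c over con-2c, 6 of the 46 decay genes were called higher and 0 lower, where the calls over all genes tested came to 14.4% higher and 3.25% lower. In si-2c over con-2c, 5 were called higher and 0 lower, against 10.7% and 1.8% of all genes. In si-4c over con-4c the direction turned, with 0 called higher and 7 called lower, against 3.12% and 15.8% of all genes. As shares of the 46 genes these calls were 13.0% higher, 10.9% higher and 15.2% lower, near the shares over all genes. At an unadjusted p below 0.05, 9 decay genes were lower in the first comparison, 16 were lower in the second and 8 were higher in the third, and DESeq2 called 0 in each of these directions. The shares of all genes at an unadjusted p were not taken, here or for the comparisons further below, so these counts are not read as particular to the decay genes.

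Smaller differences were split between the directions. By the adjusted p alone, 11 decay genes were higher and 9 lower in con-4c over con-2c (20.7% and 15.1% of all genes), 8 higher and 13 lower in si-2c over con-2c (16.6% and 12.3%), and 8 higher and 14 lower in si-4c over con-4c (15.1% and 21.7%). This split depended on the scaling of the libraries. With library totals in place of TMM factors it became 21 higher and 3 lower, 20 higher and 3 lower, and 4 higher and 19 lower, while the median log2 fold change of all genes moved by 0.27, 0.39 and -0.26. Gene by gene, 10, 12 and 5 decay genes passed the adjusted p with library totals alone and 6, 10 and 4 with TMM factors alone. Those with library totals alone were CNOT3, CNOT10, PAN3, DCP1A, LSM1, XRN1, EXOSC2, DIS3L2, TUT4 and SMG5 in con-4c over con-2c. In si-2c over con-2c they were CNOT3, CNOT10, PAN2, PAN3, LSM6, XRN1, EXOSC4, DIS3L, TUT4, UPF1, UPF2 and SMG1. In si-4c over con-4c they were DCP1A, XRN1, EXOSC7, UPF2 and SMG6. The counts of called genes became 9 higher, 7 higher and 7 lower, with LSM8, EXOSC2 and SMG5 added in con-4c over con-2c and EXOSC4 and TUT4 in si-2c over con-2c. The calls over all genes shifted the same way. With TMM factors 81.6%, 85.5% and 16.5% of the genes called over the whole table were higher. With library totals these shares were 93.4%, 98.1% and 6.41%. The shares of all genes past the adjusted p with library totals were not taken. The median log2 fold change of the decay genes with TMM factors was 0.03, 0.00 and -0.15, where that of all genes was 0.11, 0.12 and -0.11. The plot of fold changes by complex shows that the large differences lay in few genes, 5 of them in the RNA exosome.

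**Figure D1:**
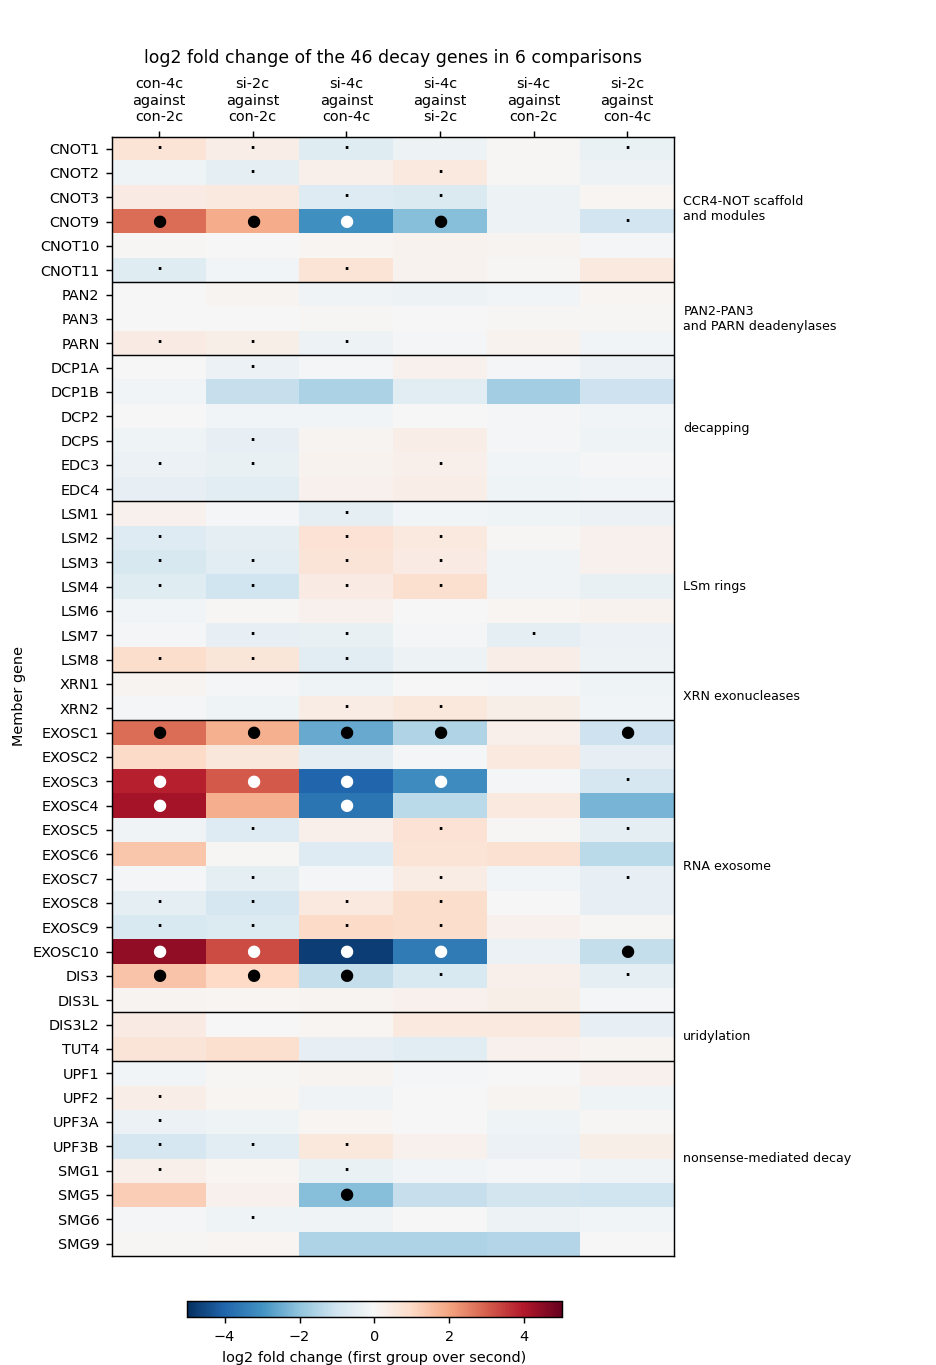
Log2 fold change (colour, first group over second) of each of the 46 decay genes, in rows grouped by complex, for 6 comparisons in columns; a large dot marks a called gene and a small dot one that passed the adjusted p alone. EXOSC1, EXOSC3, EXOSC10 and CNOT9 carry a large dot in the first 4 columns, and the column si-4c over con-2c has none.

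The RNA exosome held most of the large differences. Of its 12 measured genes, 5 were called higher in con-4c over con-2c, 4 higher in si-2c over con-2c and 5 lower in si-4c over con-4c. Over all genes tested these calls came to 14.4%, 10.7% and 15.8%, and no test of the complex as a set was run. EXOSC10, EXOSC3, EXOSC1 and DIS3 were called in all 3 comparisons, and EXOSC4 in the first and the last. They do not form a single part of the complex: EXOSC1 and EXOSC3 belong to the cap, EXOSC4 to the ring, and DIS3 and EXOSC10 are nucleases.

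EXOSC10, the nuclear exosome nuclease known as Rrp6 in yeast (ENSSSCG00000003412, chr6:71258988-71282802, Sscrofa11.1), was at 4.23, 3.74 and 5.44 CPM in the con-2c libraries and at 100.2, 92.2 and 96.1 CPM in con-4c. The si-2c libraries had 38.8, 44.1 and 44.8 CPM and the si-4c libraries 3.75, 3.09 and 4.15 CPM. Con-4c was the highest group and si-2c the next, with no overlap between them or with the other groups, while con-2c and si-4c overlapped. The log2 fold change was 4.43 (SE 0.14, adjusted p 3.96e-13) in con-4c over con-2c, 3.25 (SE 0.14, adjusted p 2.00e-11) in si-2c over con-2c and -4.71 (SE 0.14, adjusted p 1.77e-13) in si-4c over con-4c. On a linear scale the gene was 21.5 times higher in con-4c compared with con-2c and 26.2 times higher in con-4c compared with si-4c, the largest called differences among the 46 genes.

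EXOSC1, a cap subunit (ENSSSCG00000010518, chr14:108834609-108842827), stood at 34.0, 30.5 and 31.0 CPM in con-2c and 209.8, 226 and 229 CPM in con-4c. In si-2c it had 104, 114 and 105 CPM and in si-4c 40.1, 34.7 and 40.1 CPM. The order was again con-4c, si-2c and then the other two groups, and here even the con-2c and si-4c libraries did not overlap, although their difference did not pass the test (0.27 (SE 0.09, adjusted p 0.218)). The log2 fold changes of the main comparisons were 2.80 (SE 0.09, adjusted p 3.96e-13), 1.76 (SE 0.09, adjusted p 1.57e-10) and -2.53 (SE 0.09, adjusted p 8.26e-13).

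EXOSC3, the cap subunit in which mutations cause pontocerebellar hypoplasia in people (ENSSSCG00000005355, chr1:238536341-238541756), was nearly undetected in con-2c, at 0.573, 0.773 and 1.11 CPM or 18 to 36 counts. It reached 13.7, 11.9 and 11.09 CPM in con-4c and 6.7, 6.88 and 6.89 CPM in si-2c, and was back at 0.96, 0.868 and 0.508 CPM in si-4c. The 2 high groups were separate from each other and from the low pair. Its log2 fold change was 3.89 (SE 0.26, adjusted p 5.11e-09) between the control groups, 3.05 (SE 0.26, adjusted p 1.57e-07) in si-2c over con-2c and -3.97 (SE 0.27, adjusted p 4.10e-09) in si-4c over con-4c.

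DIS3, the main processive nuclease of the exosome (ENSSSCG00000009460, chr11:45046040-45075973), changed less. It had 35.8, 38.3 and 36.0 CPM in the con-2c libraries, 98.1, 96.5 and 105 CPM in those of con-4c, 75.5, 72.8 and 72.2 CPM in those of si-2c and 44.3, 39.9 and 46.7 CPM in those of si-4c. All 4 groups were separate, in the order con-4c, si-2c, si-4c and con-2c, the last pair by a narrow margin that did not pass the test. The log2 fold changes were 1.44 (SE 0.08, adjusted p 6.71e-10), 1.0003 (SE 0.08, adjusted p 1.12e-07) and -1.19 (SE 0.08, adjusted p 6.67e-09). In si-2c the value lies at the required fold, and it ran from 0.979 to 1.03 when single libraries were left out, below 1 in 9 of the 12 cases, so the count of genes called in si-2c is 4 or 5.

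EXOSC4, a ring subunit (ENSSSCG00000005925, chr4:618993-621336) and the remaining called exosome gene, was described after its values were seen and rests on few counts. It had 5, 3 and 9 counts in the con-2c libraries, 66, 127 and 95 in those of con-4c, 13, 31 and 35 in those of si-2c and 16, 9 and 0 in those of si-4c. Con-4c was above every other library, while si-2c and si-4c overlapped. The log2 fold change was 4.15 (SE 0.78, adjusted p 0.000472) in con-4c over con-2c and -3.66 (SE 0.75, adjusted p 0.00102) in si-4c over con-4c, and in si-2c over con-2c it was 1.84 (SE 0.77, adjusted p 0.0858), which did not pass. That last difference was called with library totals (2.21, adjusted p 0.0311) and when si-4c replicate 3 was left out. Its standard errors were several times those of EXOSC1 and DIS3.

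**Figure D2:**
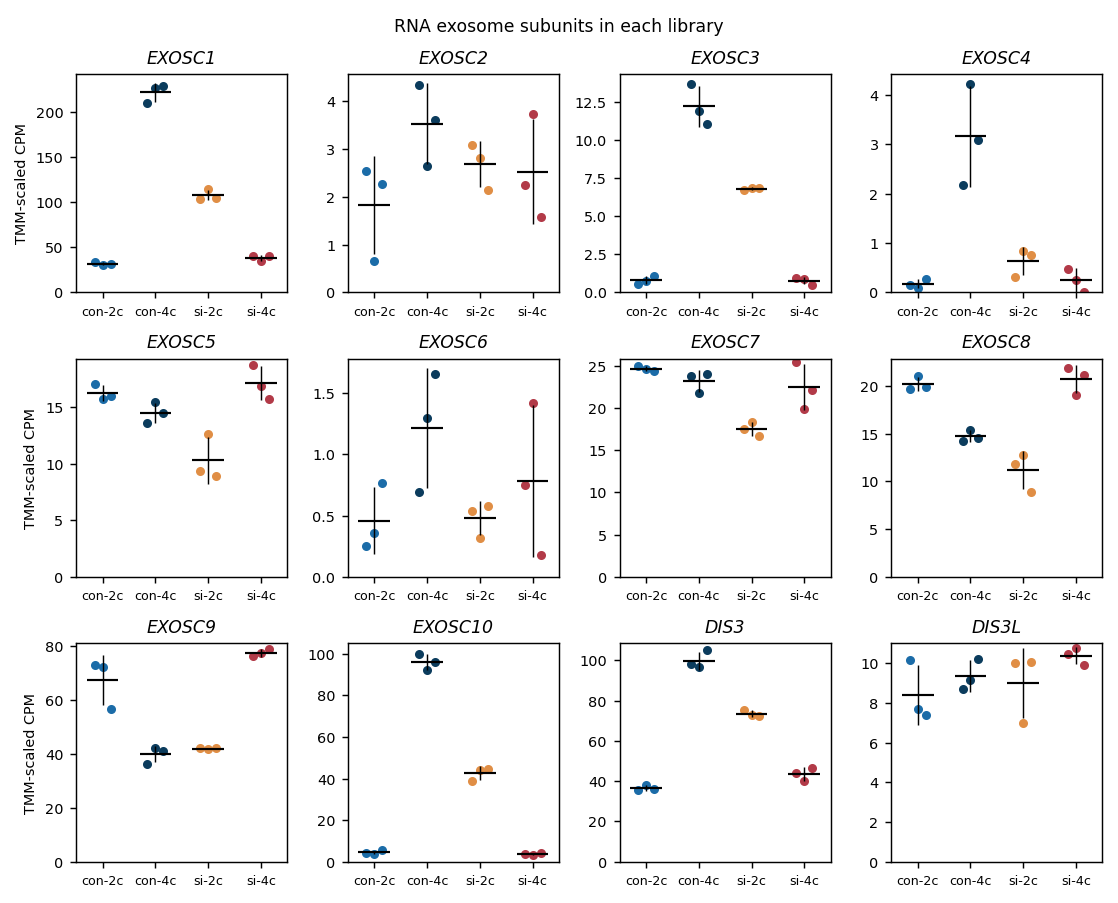
TMM-scaled CPM (vertical axis, from 0) of the 12 RNA exosome genes in each library; points are libraries, the horizontal bar is the group mean and the vertical line 1 SD (n = 3). EXOSC1, EXOSC3, EXOSC10 and DIS3 are highest in con-4c and next in si-2c, and EXOSC8 and EXOSC9 are highest in con-2c and si-4c.

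The ring subunits EXOSC8 and EXOSC9, also singled out after their values were seen, went the other way in the same libraries. EXOSC9 had 72.9, 72.3 and 56.8 CPM in con-2c and 76.1, 77.2 and 78.8 CPM in si-4c, against 36.4, 42.2 and 41.2 CPM in con-4c and 42.0, 41.7 and 42.0 CPM in si-2c. The high and the low pair did not overlap. Its log2 fold changes were -0.75 (SE 0.10, adjusted p 1.31e-05), -0.68 (SE 0.10, adjusted p 5.06e-05) and 0.95 (SE 0.10, adjusted p 9.16e-07), past the adjusted p in each case and short of the required fold. EXOSC8 gave -0.46, -0.86 and 0.49 (adjusted p 0.0123, 0.000102 and 0.00734). With library totals both kept these signs, at -0.47, -0.28 and 0.70 for EXOSC9 and -0.18, -0.46 and 0.23 for EXOSC8, of which the first and the third for EXOSC8 no longer passed (adjusted p 0.316 and 0.19).

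The ring subunits EXOSC5 and EXOSC7 passed the adjusted p only in si-2c over con-2c among these comparisons, lower by -0.66 and -0.50 on the log2 scale (adjusted p 0.002 and 0.0024), and -0.27 and -0.10 with library totals. The other three, EXOSC2, EXOSC6 and DIS3L, did not pass in any of the 3 comparisons. DIS3L, the cytoplasmic counterpart of DIS3, had mean levels between 8.42 and 10.4 CPM in the 4 groups, with log2 fold changes of 0.15, 0.10 and 0.15. EXOSC6 had 6 to 51 counts and EXOSC2 22 to 132 counts in a library, with log2 fold changes of 1.39 and 0.96 in con-4c over con-2c (adjusted p 0.131 and 0.0881). With library totals EXOSC2 was called higher there (1.22, adjusted p 0.0349), and DIS3L passed the adjusted p in si-2c over con-2c (0.51).

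Ratios of counts between exosome genes within a library do not depend on how libraries are scaled. EXOSC9 had been singled out after its values were seen, as going opposite to EXOSC1 and EXOSC10. The separation of groups in their ratios therefore follows from that choice and is no separate support. The ratio of EXOSC1 to EXOSC9 counts was 0.478 ± 0.0621 (mean ± SD, n = 3) in con-2c and 5.56 ± 0.205 in con-4c. It was 2.57 ± 0.149 in si-2c but 0.495 ± 0.0407 in si-4c. The ratio of EXOSC10 to EXOSC9 counts went from 0.0686 ± 0.0238 in con-2c to 2.42 ± 0.294 in con-4c and from 1.02 ± 0.0808 in si-2c to 0.0473 ± 0.00651 in si-4c. In both ratios the con-2c and si-4c libraries overlapped, and con-4c and si-2c stood apart from them and from each other. DIS3 relative to DIS3L moved less, at 4.46 ± 0.805, 10.7 ± 0.542, 8.37 ± 1.78 and 4.22 ± 0.498 in the groups ordered as con-2c, con-4c, si-2c, si-4c. These ratios depend on transcript length and are compared between libraries, not read as ratios of molecules.

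**Figure D3:**
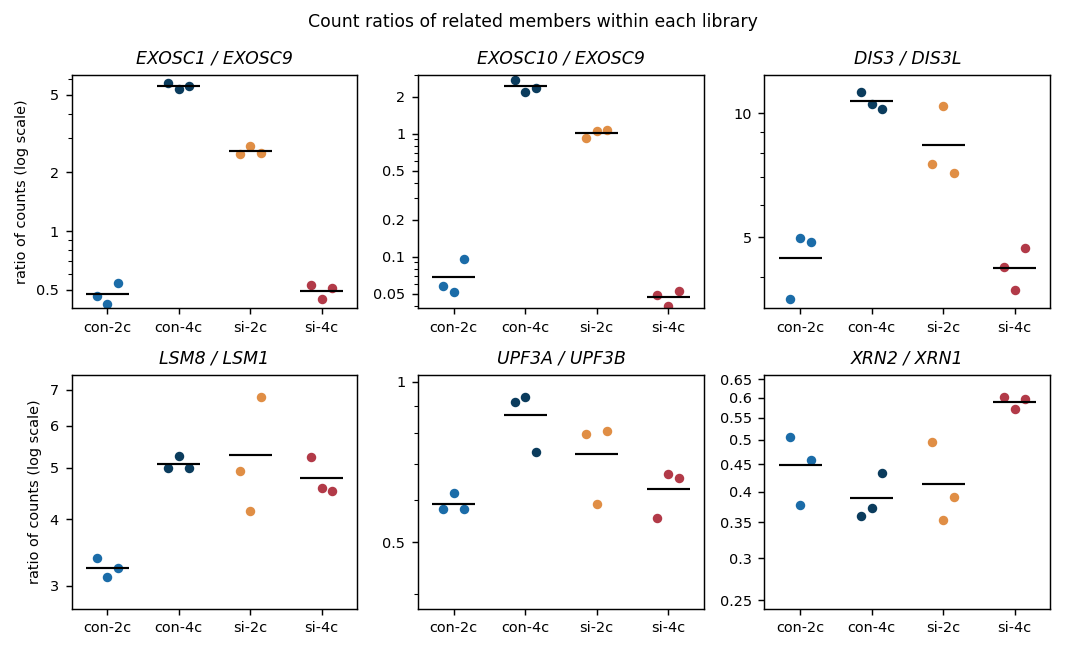
Ratio of the counts of a pair of decay genes within each library (vertical axis, log scale), one point per library and a bar at the group mean of 3. EXOSC1 over EXOSC9 and EXOSC10 over EXOSC9 separate con-4c and si-2c from con-2c and si-4c, whereas for UPF3A over UPF3B and XRN2 over XRN1 the points of several groups overlap. EXOSC9 was singled out after its values were seen.

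In CCR4-NOT, the main cytoplasmic deadenylase, 1 of the 6 scaffold and module genes was called in each main comparison, and it was CNOT9 each time. Over all genes tested, 14.4% were called higher in the first comparison, 10.7% higher in the second and 15.8% lower in the third. CNOT9, the adaptor subunit that contacts GW182 and other RNA-binding proteins (ENSSSCG00000016193, chr15:120590354-120622203), was at 3.98, 3.89 and 4.73 CPM in con-2c and 33.1, 29.0 and 26.4 CPM in con-4c. In si-2c it had 13.2, 13.8 and 19.2 CPM and in si-4c 3.84, 3.44 and 3.37 CPM. It followed the order of EXOSC10: con-4c above si-2c, si-2c above the rest, and con-2c narrowly above si-4c, a difference that did not pass the test (-0.24 (SE 0.17, adjusted p 0.68)). The log2 fold changes were 2.81 (SE 0.17, adjusted p 1.17e-09), 1.87 (SE 0.17, adjusted p 2.73e-07) and -3.05 (SE 0.17, adjusted p 4.61e-10).

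CNOT1, the scaffold on which the complex assembles, moved the same way by less, with group means of 38.5 ± 3.03, 61.9 ± 3.9, 48.8 ± 5.53 and 40.6 ± 1.34 CPM (SD, n = 3) for the groups ordered as con-2c, con-4c, si-2c, si-4c. Its log2 fold changes of 0.69, 0.34 and -0.61 passed the adjusted p (3.55e-05, 0.0143 and 0.000116) and not the fold. CNOT11, which with CNOT10 forms a module at the amino end of CNOT1, was lower in con-4c compared with con-2c (-0.61, adjusted p 0.00383) and higher in si-4c compared with con-4c (0.67, adjusted p 0.00177), and neither difference passed with library totals. CNOT10 did not pass in any of the 3 comparisons with TMM factors, with values from -0.03 to 0.08. With library totals CNOT10 passed in con-4c over con-2c (0.33, adjusted p 0.0177). It then also passed in si-2c over con-2c (0.37, adjusted p 0.00985), with the sign turned.

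CNOT2, which with CNOT3 forms the NOT module and has the most counts of these 6 genes, had 71.8, 70.0 and 56.1 CPM in the con-2c libraries, 53.7, 60.7 and 56.5 CPM in those of con-4c, 42.4, 42.5 and 59.7 CPM in those of si-2c and 63.6, 70.0 and 70.2 CPM in those of si-4c. Its libraries overlapped between most groups, and of the 3 main comparisons only si-2c over con-2c passed the adjusted p, at -0.45 (SE 0.13, adjusted p 0.013), a value that was -0.04 with library totals. CNOT3 was at 0.39 and 0.47 in con-4c and si-2c over con-2c, neither past the test, and lower in si-4c compared with con-4c by the adjusted p alone (-0.65 (SE 0.20, adjusted p 0.0183)). With library totals the first pair passed the adjusted p too (0.67 and 0.87, adjusted p 0.0151 and 0.00277).

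None of the PAN2-PAN3 and PARN genes was called. PAN3, the subunit that brings the PAN2 nuclease to the poly(A) tail, varied little with TMM factors, at 86.6, 76.1 and 86.7 CPM in the con-2c libraries, 80.5, 84.7 and 81.9 CPM in those of con-4c, 83.4, 81.7 and 90.8 CPM in those of si-2c and 86.2, 86.8 and 85.9 CPM in those of si-4c. The 4 groups overlapped except con-4c and si-4c, and the 95% intervals of its log2 fold change were -0.18 to 0.15, -0.13 to 0.20 and -0.10 to 0.23 in the 3 main comparisons. With library totals PAN3 gave 0.26, 0.43 and -0.19. The first and second then passed the adjusted p (0.0498 and 0.00224). PARN, a deadenylase of oocyte messages and of nuclear RNAs, was higher in con-4c (0.43 (SE 0.08, adjusted p 0.000464)) and in si-2c (0.29 (SE 0.08, adjusted p 0.0109)) than in con-2c and lower in si-4c compared with con-4c (-0.25 (SE 0.08, adjusted p 0.0217)), each past the adjusted p alone. PAN2 gave 0.04, 0.14 and -0.17, none past the test, though the second passed the adjusted p with library totals (0.54, adjusted p 0.0431).

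The decapping genes showed no called difference in any comparison. DCP2, the enzyme that removes the cap, varied more within groups than between them: 128, 218 and 207 CPM in the con-2c libraries, 135, 203 and 225 CPM in those of con-4c, 185, 122 and 201 CPM in those of si-2c and 149.6, 239 and 123 CPM in those of si-4c. Every group spanned about the same range, and the 95% interval of its log2 fold change was wide, -0.50 to 0.55 in con-4c over con-2c, -0.65 to 0.40 in si-2c over con-2c and -0.66 to 0.39 in si-4c over con-4c. A difference in DCP2 within these intervals was not detectable with these libraries.

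Its partners were steadier. EDC3, an enhancer of decapping, was lower in con-4c and in si-2c than in con-2c by the adjusted p alone (-0.28 and -0.38, adjusted p 0.0118 and 0.00176), values that went to -0.01 and 0.02 with library totals. DCP1A, the activating partner of DCP2, and DCPS, the scavenger of the cap left after 3′ decay, were lower in si-2c compared with con-2c by the same measure (-0.30 and -0.41, adjusted p 0.0391 and 0.0299), but DCP1A stood at 0.10 and DCPS at -0.02 with library totals. EDC4 did not pass (-0.42, -0.55 and 0.21). DCP1B had 0 to 15 counts in a library, too few to measure a change.

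The LSm genes split into members that moved in opposite directions. The LSm proteins form 7-membered rings: LSM1 to LSM7 make the cytoplasmic ring that joins decapping, and LSM8 replaces LSM1 in the nuclear ring, which holds U6 snRNA. Of the 7 measured genes 0 were called in the 3 main comparisons, but LSM8 was higher and LSM2, LSM3 and LSM4 were lower in con-4c compared with con-2c by the adjusted p alone. These 4 were described after their values were seen.

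LSM8, the nuclear subunit, had 38.8, 46.7 and 42.5 CPM in the con-2c libraries, 78.6, 84.9 and 70.0 CPM in those of con-4c, 57.1, 59.5 and 76.5 CPM in those of si-2c and 58.0, 51.7 and 51.4 CPM in those of si-4c. Con-2c lay below every other library, and si-2c overlapped with con-4c and si-4c. The log2 fold changes were 0.87 (SE 0.12, adjusted p 1.72e-05), 0.59 (SE 0.12, adjusted p 0.000915) and -0.53 (SE 0.12, adjusted p 0.00158), and with library totals the first was called higher (1.14, adjusted p 2.25e-06). LSM1, which takes the same place in the cytoplasmic ring, gave 0.21 and -0.09 in the first pair of comparisons, neither past the test, and -0.44 (SE 0.14, adjusted p 0.0201) in the third. The ratio of LSM8 to LSM1 counts was 3.25 ± 0.138 in the con-2c libraries, 5.08 ± 0.148 in those of con-4c, 5.29 ± 1.36 in those of si-2c and 4.78 ± 0.402 in those of si-4c, lowest in the 3 con-2c libraries.

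LSM3, shared by both rings, had 129, 143 and 134 CPM in con-2c and 131, 105 and 123 CPM in si-4c, above 72.8, 85.3 and 72.9 CPM in con-4c and 95.04, 94.0 and 81.8 CPM in si-2c. Its log2 fold changes were -0.81 (SE 0.10, adjusted p 5.88e-06), -0.58 (SE 0.10, adjusted p 0.000245) and 0.63 (SE 0.10, adjusted p 8.45e-05). LSM4 gave -0.60, -0.99 and 0.42 (adjusted p 0.00263, 4.33e-05 and 0.0248), and its value in si-2c lies at the edge of the required fold, which it passed when con-2c replicate 2 or si-2c replicate 2 was left out. LSM2 gave -0.66, -0.45 and 0.72, of which the second did not pass (adjusted p 0.0566). All of these kept their sign with library totals and were smaller. LSM3 still passed in con-4c over con-2c (-0.54) and in si-4c over con-4c (0.37) but not in si-2c over con-2c (-0.19, adjusted p 0.144). LSM4 passed only in si-2c over con-2c (-0.60), with -0.33 and 0.17 in the others (adjusted p 0.0785 and 0.391). LSM2 passed only in si-4c over con-4c (0.46), with -0.39 and -0.06 in the others (adjusted p 0.0885 and 0.826).

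LSM7, the ring gene with the most counts, differed from the others in being lower in both si groups with TMM factors. It had 619, 734 and 610.0 CPM in the con-2c libraries, 599, 626 and 596 CPM in those of con-4c, 515, 548 and 422 CPM in those of si-2c and 452, 470.4 and 466 CPM in those of si-4c. On this scale every si library was lower than every control library. The log2 fold change was -0.40 (SE 0.09, adjusted p 0.00371) in si-2c over con-2c and -0.39 (SE 0.09, adjusted p 0.00364) in si-4c over con-4c, and -0.11 between the control groups (adjusted p 0.412). With library totals the first was -0.01 and the second -0.65, so the size of the difference in si-2c depends on the scaling. LSM6 did not pass in any of the 3 comparisons with TMM factors, and passed in si-2c over con-2c with library totals (0.45, adjusted p 0.0154).

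LSM5, kept apart from the 46 genes, was at 15.7, 18.8 and 17.5 CPM in the con-2c libraries, 11.7, 11.9 and 11.5 CPM in those of con-4c, 9.99, 9.59 and 11.2 CPM in those of si-2c and 20.5, 16.3 and 18.5 CPM in those of si-4c. Its log2 fold changes were -0.57 (adjusted p 0.00221) in con-4c over con-2c, -0.76 (adjusted p 0.000253) in si-2c over con-2c and 0.66 (adjusted p 0.000688) in si-4c over con-4c, the directions of LSM3.

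**Figure D4:**
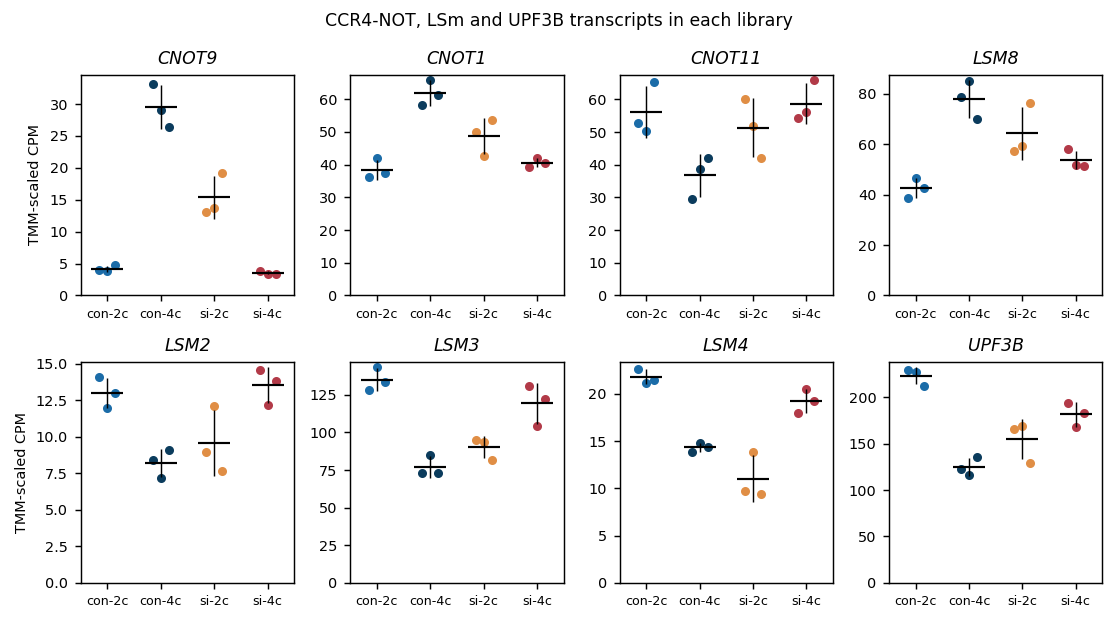
TMM-scaled CPM (vertical axis, from 0) of 8 CCR4-NOT, LSm and NMD genes in each library; points are libraries, the horizontal bar is the group mean and the vertical line 1 SD (n = 3). CNOT9, CNOT1 and LSM8 are highest in con-4c, and LSM2, LSM3, LSM4 and UPF3B are lowest in con-4c and si-2c.

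The 5′ exonucleases showed no called difference in the main comparisons. XRN1, the cytoplasmic enzyme that degrades decapped messages, had 95.1, 106 and 90.5 CPM in the con-2c libraries, 102, 107 and 107 CPM in those of con-4c, 79.2, 92.7 and 102 CPM in those of si-2c and 90.8, 92.5 and 86.7 CPM in those of si-4c. Its log2 fold changes of 0.12, -0.09 and -0.23 did not pass the test, with 95% intervals of -0.08 to 0.31, -0.29 to 0.11 and -0.42 to -0.03. With library totals all 3 passed the adjusted p, at 0.39, 0.31 and -0.49 (adjusted p 0.00373, 0.0168 and 0.000696), the second with the sign turned. XRN2, the nuclear enzyme that also ends transcription, was higher in si-4c compared with con-4c by the adjusted p alone (0.37 (SE 0.11, adjusted p 0.0133)), a value of 0.11 with library totals.

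Of the uridylation genes, DIS3L2 and TUT4 were measured and 0 were called in the 3 main comparisons. DIS3L2, the exosome-independent nuclease for uridylated RNA, had 5.66, 4.31 and 4.58 CPM in the con-2c libraries, 5.5, 7.39 and 6.6 CPM in those of con-4c, 3.58, 5.81 and 5.43 CPM in those of si-2c and 6.39, 8.04 and 6.15 CPM in those of si-4c. The groups overlapped in most pairs, and the log2 fold changes were 0.42, 0.03 and 0.08 (adjusted p 0.147, 0.951 and 0.817). TUT4, a terminal uridylyltransferase, gave 0.63, 0.79 and -0.41 from 39 to 145 counts in a library (adjusted p 0.129, 0.0669 and 0.327). With library totals the first passed the adjusted p (0.92, adjusted p 0.026) and the second was called higher (1.201, adjusted p 0.00529).

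Among the 8 NMD genes, SMG5 alone was called, lower in si-4c compared with con-4c, where 15.8% of all genes were called lower. SMG5, an adaptor that binds phosphorylated UPF1 and recruits decay enzymes (ENSSSCG00000006490, chr4:93770329-93801808), had 0.477, 1.4 and 1.29 CPM in the con-2c libraries, 2.47, 1.46 and 3.48 CPM in those of con-4c, 1.41, 1.02 and 1.29 CPM in those of si-2c and 0.6, 0.289 and 0.777 CPM in those of si-4c, from 10 to 107 counts in a library. The si-4c libraries were all below those of con-4c, while con-2c overlapped with si-2c and si-4c. The log2 fold change was -2.15 (SE 0.49, adjusted p 0.00244) in that comparison and 1.22 (SE 0.47, adjusted p 0.0534) in con-4c over con-2c, just short of the threshold. The latter was called with library totals (1.49, adjusted p 0.0225), with RLE factors (adjusted p 0.048), with DESeq2 (0.0494), with a filter of 1 CPM (0.0449) and without con-4c replicate 2 (0.034) or si-4c replicate 2 (0.045).

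SMG1, the kinase that phosphorylates UPF1 and the NMD gene with the most counts, had 1537, 1529 and 1364 CPM in the con-2c libraries, 1835, 1763 and 1755 CPM in those of con-4c, 1516, 1622 and 1565 CPM in those of si-2c and 1426, 1393 and 1486 CPM in those of si-4c. Con-4c was above all other groups, and con-2c overlapped with both si groups. With TMM factors its log2 fold changes were small, at 0.27 (SE 0.07, adjusted p 0.0056), 0.09 (SE 0.07, adjusted p 0.411) and -0.31 (SE 0.07, adjusted p 0.00196). With library totals they were 0.55, 0.49 and -0.57 (adjusted p 1.97e-06, 1.10e-05 and 1.26e-06), so the second then passed.

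UPF3B, an exon junction partner of UPF2 encoded on the X chromosome, was seen to differ more and is described for that reason. It had 229.9, 227 and 213 CPM in the con-2c libraries, 123, 116 and 135 CPM in those of con-4c, 166, 169 and 129.7 CPM in those of si-2c and 194, 168 and 183 CPM in those of si-4c. The con-2c libraries were the highest and did not overlap with any other group. The log2 fold changes were -0.84 (SE 0.10, adjusted p 4.48e-06), -0.53 (SE 0.10, adjusted p 0.000652) and 0.54 (SE 0.10, adjusted p 0.000408), past the adjusted p alone, and with library totals they were -0.56, -0.13 and 0.28, the second no longer past it (adjusted p 0.291). UPF3A, its paralog, gave -0.30, -0.23 and 0.08, of which only the first passed (adjusted p 0.0314), a value of -0.02 with library totals.

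UPF2, which joins UPF3 proteins to the helicase UPF1, was higher in con-4c compared with con-2c by the adjusted p alone (0.32 (SE 0.08, adjusted p 0.00453)). With library totals UPF2 also passed in si-2c over con-2c (0.50, adjusted p 9.01e-05) and in si-4c over con-4c (-0.44, adjusted p 0.000287). UPF1 itself did not pass in any of the 3 comparisons with TMM factors, with -0.14, 0.08 and 0.14. The second passed with library totals (0.47, adjusted p 0.0447). SMG6, the endonuclease of the pathway, passed in si-2c over con-2c (-0.23 (SE 0.09, adjusted p 0.0489)), where library totals gave 0.16, the opposite sign. SMG9, a partner of the SMG1 kinase, had 0 to 23 counts in a library and did not pass in any of the 3 comparisons.

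Other genes of these pathways were counted from 5 lists. For scale, both thresholds were passed upward by 14.4% and downward by 3.25% of all genes in con-4c over con-2c. These shares were 10.7% and 1.8% in si-2c over con-2c, and 3.12% and 15.8% in si-4c over con-4c. The lists are short and were not tested as sets, so their counts are not read as particular to them. Of 10 deadenylation genes (catalytic subunits, adaptors and poly(A)-binding proteins), 2 were called higher and 1 lower for con-4c over con-2c, 1 higher and 1 lower in si-2c over con-2c, and 1 higher and 2 lower in si-4c over con-4c. BTG4, the oocyte adaptor of CCR4-NOT, was at 18571 ± 2719 CPM in the con-2c libraries, 7682 ± 462 CPM in those of con-4c, 7897 ± 948 CPM in those of si-2c and 19671 ± 1113 CPM in those of si-4c, opposite to CNOT9. The catalytic subunits CNOT6, CNOT6L, CNOT7 and CNOT8 were not called in any of these comparisons. PABPC1 and TOB2 were the genes called higher in con-4c, at log2 fold changes of 3.88 (adjusted p 2.52e-07) and 1.34 (adjusted p 9.94e-06).

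RBM7, an RNA-binding subunit of the nuclear exosome targeting complex, was the only one of 10 tested exosome cofactors called, and it moved with EXOSC10. It was at 1.81 ± 1.18 CPM in the con-2c libraries, 89.6 ± 1.95 CPM in those of con-4c, 48.2 ± 5.42 CPM in those of si-2c and 1.29 ± 0.357 CPM in those of si-4c. Its partners MTREX and ZCCHC8 were not called. Of 9 decapping activators, PNRC1 was called higher in con-4c over con-2c (1.57 (adjusted p 1.05e-07)) and lower in si-4c over con-4c (-1.37 (adjusted p 4.45e-07)), and 0 were called in si-2c over con-2c. Of 4 tested tailing genes 0 were called in the 3 comparisons. Of 9 genes of NMD and the exon junction complex, the release factors ETF1 and GSPT1 were called higher and MAGOH lower in con-4c over con-2c, ETF1 higher and MAGOH lower in si-2c over con-2c, and ETF1 lower and MAGOH higher in si-4c over con-4c.

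Between the si groups, si-4c over si-2c, 0 decay genes were called higher and 4 lower, where 1.47% and 11.9% of all genes were. The 4 were EXOSC10 (-3.54 (SE 0.14, adjusted p 6.89e-12)), EXOSC3 (-3.13 (SE 0.26, adjusted p 1.24e-07)), CNOT9 (-2.12 (SE 0.17, adjusted p 7.40e-08)) and EXOSC1 (-1.49 (SE 0.09, adjusted p 1.09e-09)). Without the minimum fold 10 decay genes were higher and 6 lower, against 12.1% and 16.9% of all genes, and with library totals this split was 3 higher and 20 lower. The higher genes were EXOSC9, EXOSC8, LSM4 and EXOSC5, at 0.88, 0.89, 0.81 and 0.73, and XRN2, LSM2, CNOT2, LSM3, EXOSC7 and EDC3, between 0.26 and 0.51. Lower by the adjusted p alone were DIS3 (-0.75, adjusted p 2.79e-06) and CNOT3 (-0.73, adjusted p 0.0115), both of which were called with library totals, as was SMG5. At an unadjusted p below 0.05, 13 decay genes were higher, and DESeq2 called 0 higher.

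The difference between title stages in control libraries and that in si libraries share no library and ran in opposite directions. Across the 46 genes the log2 fold changes of con-4c over con-2c and of si-4c over si-2c had a Pearson's r of -0.85 and a Spearman's rho of -0.72, with opposite signs in 36 genes. Over all 17995 genes the Pearson's r was -0.74 and the Spearman's rho -0.71, with opposite signs in 13864. The reversal was thus seen over all genes and was not particular to the decay genes. The correlations are descriptions across genes, which share the libraries and are not independent replicates. Of the 20 decay genes past the adjusted p in con-4c over con-2c, 19 had the opposite sign in si-4c over si-2c. The matching count over all genes was not taken.

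**Figure D5:**
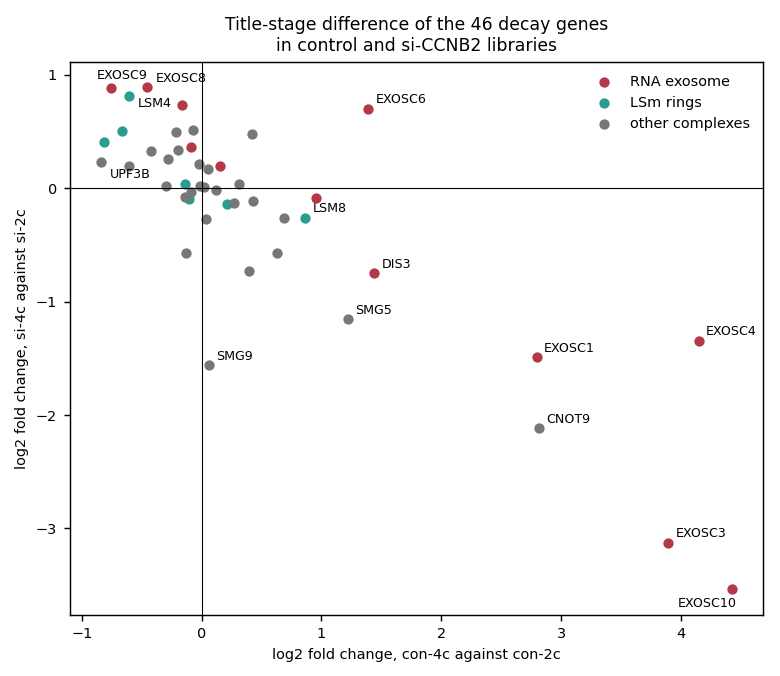
Log2 fold change between title stages in control libraries (horizontal axis) and in si libraries (vertical axis) for the 46 decay genes, coloured by complex. EXOSC10, EXOSC3, CNOT9, EXOSC1 and DIS3 lie at the lower right and EXOSC8, EXOSC9 and LSM4 at the upper left, in opposite directions in control and si libraries.

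The crossed comparisons set the groups that looked alike beside each other. Over all genes, 60 were called in si-4c over con-2c and 322 in si-2c over con-4c. Within the titles, 2242 were called in si-2c over con-2c and 3414 in si-4c over con-4c. Whether stages were exchanged in the control or the si libraries alone was not tested. In si-4c over con-2c, 0 decay genes were called in either direction, where 0.0333% of all genes were called higher and 0.3% lower. At an unadjusted p below 0.05 there were 6 higher and 3 lower, and DESeq2 called 0. LSM7 alone passed the adjusted p there (-0.50 (SE 0.09, adjusted p 0.02)), against 0.106% of all genes higher and 0.567% lower. The 95% interval of the log2 fold change was -0.60 to 0.03 for EXOSC10, 0.09 to 0.45 for EXOSC1, -0.68 to 0.54 for EXOSC3 and -0.61 to 0.13 for CNOT9, none of which reaches the difference between the control groups.

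In si-2c over con-4c, 0 decay genes were called higher and 2 lower, against 0.161% and 1.63% of all genes. They were EXOSC10 (-1.18 (SE 0.12, adjusted p 9.08e-06)) and EXOSC1 (-1.04 (SE 0.08, adjusted p 2.12e-06)), and EXOSC1 fell short of the required fold with library totals (-0.92). By the adjusted p alone 6 more were lower, so that 8 were lower and 0 higher without the minimum fold, against 5.32% and 2.22% of all genes; with library totals these counts were 4 lower and 3 higher. They were CNOT9 (-0.94), EXOSC3 (-0.84), EXOSC5 (-0.50), DIS3 (-0.44), EXOSC7 (-0.41) and CNOT1 (-0.34), of which EXOSC5 and EXOSC7 had not passed in con-4c over con-2c. EXOSC4 did not pass (-2.31 (SE 0.68, adjusted p 0.0502)) but was called lower with RLE factors, DESeq2, either other filter on low counts and only the groups compared, and without con-2c replicate 2 or 3 or si-4c replicate 1 or 3. CNOT9 was called lower without con-4c replicate 3 or si-2c replicate 3. LSM8, PARN, UPF2 and SMG1, higher in con-4c over con-2c by the adjusted p, did not pass here (adjusted p 0.195, 0.41, 0.116 and 0.13). At an unadjusted p below 0.05, 3 genes were higher, and DESeq2 called 0 higher.

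The interaction tested whether the difference between si and control libraries was the same under both titles, as si-4c minus con-4c less si-2c minus con-2c. It was called for 16 of the 46 decay genes, 6 higher and 10 lower, where 9.87% of all genes were called higher and 22.5% lower. As shares of the 46 genes these were 13.0% and 21.7%, near those over all genes. Without the minimum fold 13 were higher and 13 lower, against 18.2% and 27.3% of all genes. With library totals the split of called genes was 0 higher and 15 lower. The 10 lower genes were EXOSC10, EXOSC3, EXOSC4, CNOT9, EXOSC1, SMG5, DIS3, TUT4, LSM8 and CNOT3. The 6 higher genes were EXOSC9, LSM4, EXOSC8, LSM3, LSM2 and UPF3B, from 3 complexes, and their interaction stayed above 0 with library totals without passing the required fold. With TMM factors, all 12 libraries and no replicate block, TUT4, LSM8, CNOT3 and these 6 were not called in any of the 6 comparisons of groups. LSM5, kept apart from the 46 genes, gave 1.41 (adjusted p 6.92e-06).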

How the data were processed

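Counts of 12 SMART-seq libraries were used. The authors deposited whole-number counts for each Ensembl gene, without normalization. The submitters' notes name cutadapt 1.9, HISAT2 2.2.1, StringTie 2.1.6, DESeq2, edgeR and the build Sscrofa11.1, and the counting settings, use of strand and treatment of reads matching several genes are not given in the sources used here, so overlapping genes and close paralogs are uncertain. Gene positions come from the RefSeq gene table of the same assembly, matched by symbol for 45 of the 46 genes.

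Counts were fitted in R 4.3.3 with edgeR 4.0.16 (filterByExpr, TMM factors, a quasi-likelihood model of the 4 group means over all 12 libraries) with Benjamini-Hochberg adjustment across the 17995 genes tested. The thresholds (adjusted p 0.05, absolute log2 fold change 1) are those of the study, which named DESeq2. CPM values are TMM-scaled, SE is the log2 fold change over the square root of F, and the script was tested on simulated data. Library totals lay between 27785233 and 39510908 counts, without molecular identifiers, so replicate spread sets the precision.

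The genes and lists were chosen with earlier results of these data known. Values per library were to be given for the called genes of each complex (at most 4, by smallest p) and the gene with the most counts in it, and any other gene described was chosen after its values were seen. Alternatives were library totals, RLE factors, DESeq2 1.42.0, other filters, no minimum fold, fits of only the groups compared, a replicate block and leaving out each library.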

Additional observations from a re-analysis of the deposited data

Results flagged for a closer look

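For 16 decay genes the difference between si and control libraries was not the same under the 2 titles, by the edgeR test of the interaction with adjustment over all genes tested. They were 13.0% of the 46 genes above 0 and 21.7% below 0, near the 9.87% and 22.5% over all genes. Each value below is the log2 difference si-4c minus con-4c less si-2c minus con-2c, with its adjusted p.

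Below 0 were EXOSC10 at -7.96 (adjusted p 6.08e-15), EXOSC3 at -7.02 (1.24e-10), EXOSC4 at -5.49 (0.000457), CNOT9 at -4.93 (4.32e-11), EXOSC1 at -4.29 (3.62e-14), SMG5 at -2.38 (0.00866), DIS3 at -2.19 (1.40e-10), TUT4 at -1.20 (0.0332), LSM8 at -1.13 (2.64e-05) and CNOT3 at -1.12 (0.00397). EXOSC4, SMG5 and TUT4 rest on at most 145 counts in a library, and CNOT3, TUT4 and LSM8 were not called in any single comparison of groups with TMM factors.

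Above 0 were EXOSC9 at 1.64 (adjusted p 5.23e-08), LSM4 at 1.41 (1.76e-05), EXOSC8 at 1.35 (1.54e-05), LSM3 at 1.22 (1.98e-06), LSM2 at 1.16 (0.000746) and UPF3B at 1.07 (9.18e-06), none of them called in a single comparison of groups with TMM factors, all 12 libraries and no replicate block.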

How the results depend on the processing

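The 40 calls of a decay gene in a comparison or in the interaction were recomputed under the alternatives, which gave 744 values: 715 kept the direction and the call, 29 lost the call and 0 changed direction. DIS3 in si-2c over con-2c lost the call with no filter (0.996), with the replicate block (0.9998) and in 9 of 12 fits that left out a library. TUT4 lost its interaction call with no filter (-1.19, adjusted p 0.0508) and in 6 such fits, CNOT3 in 2 (without con-4c replicate 3 or si-2c replicate 2), and LSM8 (-0.98) and UPF3B (0.96) without si-2c replicate 3.

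Without a minimum fold the counts were 11 higher and 9 lower in con-4c over con-2c, 8 and 13 in si-2c over con-2c, 8 and 14 in si-4c over con-4c, 10 and 6 in si-4c over si-2c (12.1% and 16.9% of all genes), 0 and 1 in si-4c over con-2c (0.106% and 0.567%), 0 and 8 in si-2c over con-4c (2.22% and 5.32%) and 13 and 13 in the interaction (18.2% and 27.3%). With library totals 9 rather than 6 were called higher in con-4c over con-2c (LSM8, EXOSC2 and SMG5 added), 7 rather than 5 in si-2c over con-2c (EXOSC4 and TUT4 added), 7 were lower in si-4c over si-2c, 1 was lower in si-2c over con-4c and 0 were higher in the interaction, where EXOSC9 gave 0.98, LSM4 0.77, EXOSC8 0.70, LSM3 0.56, LSM2 0.52 and UPF3B 0.41. Over the whole table, the share of called genes that were higher also moved with library totals. It went from 11% to 1.59% in si-4c over si-2c, from 9.01% to 21.9% in si-2c over con-4c and from 30.5% to 8.67% in the interaction. Leaving out 1 library gave 0 to 1 lower in si-2c over con-2c (LSM4 without con-2c replicate 2 or si-2c replicate 2), 0 to 1 higher in si-4c over con-4c (without con-4c replicate 2) and 0 to 2 higher in si-4c over si-2c (2 without si-2c replicate 2).

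Many differences that did not pass the test changed sign under library totals. Among the genes given per library by rule, this held for CNOT2 (0.069 in con-4c over con-2c, -0.0017 in si-4c over con-4c) and PAN3 (0.26, then past the adjusted p, and -0.19). It also held for LSM7 in con-4c over con-2c (0.17), DCP2 (0.27) and XRN1 (0.31, then past the adjusted p at 0.0168) in si-2c over con-2c, and DIS3L2 in si-4c over con-4c (-0.18). Outside that rule they were DCP1A (0.25, then past the adjusted p at 0.0413), DCP1B, DCPS, LSM6, XRN2, EXOSC5, EXOSC7, UPF1 and SMG6 in con-4c over con-2c. In si-2c over con-2c they were CNOT10 (0.37, then past the adjusted p at 0.00985), CNOT11, LSM1, XRN2 and UPF3A. In si-4c over con-4c they were CNOT10, DCPS, EDC3, EDC4, LSM6, EXOSC5, DIS3L, UPF1 and UPF3A. DCP1A, EDC3 and SMG6 passed the adjusted p in si-2c over con-2c and changed sign there too. PAN3 in con-4c over con-2c was also 0.020 with RLE factors, 0.017 with DESeq2, 0.020 with the CPM filter and 0.0011 with only the groups compared. With 1 library left out, PAN3 ran from -0.078 to 0.012 in con-4c and -0.026 to 0.071 in si-2c over con-2c, DCP2 from -0.19 to 0.21 and -0.33 to 0.066 there and -0.46 to 0.057 in si-4c over con-4c, XRN1 from -0.18 to 0.00090 and SMG5 from -0.12 to 0.48 in si-2c over con-2c, and DIS3L2 from -0.11 to 0.21 there and -0.046 to 0.19 in si-4c over con-4c. The cause was not tested.

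Libraries with the same number did not deviate together (correlations of their deviations from the group means -0.05 to 0.03), so the main fit did not pair them. The labels do not say whether libraries of the same number were collected together, and these correlations cannot show it. With the replicate block 1 decay gene, LSM4, was called lower in si-2c over con-2c, and the genes called over the whole table went from 3182 to 2936 in con-4c over con-2c. EXOSC4, EXOSC6, SMG5, SMG9 and DCP1B had at most 127 counts in a library, which limits them to large differences.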
